A study of Ovis aries with 2 samples.

Results

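The 10 genes described here code for AP-1 and immediate early transcription factors. They are FOS, FOSB and FOSL2 of the FOS family, JUN and JUNB of the JUN family, ATF3, the zinc finger factor EGR1, the orphan nuclear receptors NR4A1 and NR4A2, and MYC. They were chosen by gene name, and all 10 names were found among 19909 genes, in 12 of the 22881 transcript entries of the deposited table. AP-1 is a dimer of a FOS, JUN or ATF family protein with another protein of these families, joined through a leucine zipper and bound to DNA through the adjoining basic region. Immediate early genes need no new protein synthesis for their induction: growth factors, gonadotrophins and cell stress act on them within minutes through MAP kinases and factors such as SRF, ELK1 and CREB. In the ovary they are known as early targets of luteinising hormone in granulosa cells.

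RNA came from the granulosa cell layer of Hu sheep, multiparous ewes aged 3 to 4 years, fed at different levels in the luteal phase of the cycle. The 8 supplemented ewes were fed 1.5 times their maintenance ration, which came to 1560 g a day each. The 8 restricted ewes were fed 0.5 times that ration, or 520 g a day each, so neither group was fed at maintenance. The layer was scraped from all visible follicles over 2.5 mm in diameter, which pools follicles of different size and stage, and the labels do not say how many ewes gave RNA to each library.

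Each diet was sequenced as 1 library. The variation among ewes is therefore unknown, the effect of diet cannot be tested, and every ratio below compares these 2 libraries. Recovered depth was 9426679 supplemented and 11299773 restricted reads. Intervals are exact Clopper-Pearson 95% intervals on the recovered reads. They express counting error alone, as PCR copies of 1 molecule can be read more than once. The labelled cell type was checked on granulosa markers: all 8 in the table were present in both libraries, 5 of them at least 2-fold lower in the supplemented one, with a summed level of 9239 against 22235 FPKM and a median log2 ratio of -1.21. Most markers of other cells went the other way. Of 10 leukocyte markers 9 were at least 2-fold higher (summed 315 against 59.6 FPKM), of 9 stromal markers 5 (1237 against 620.3 FPKM) and of 4 theca markers 2 (220.4 against 112 FPKM). Among them LUM and PDGFRB of the stromal list and PDGFRA of the theca list were lower, by 1.48-fold, 1.75-fold and 1.88-fold in reads, short of the size threshold and named after their values were seen. No marker of these lists was without reads in either library, and of 5 endothelial markers 1 was measured (summed 13.7 against 3.66 FPKM). The part of these cell types in the ratios of the 10 genes was not tested, and in bulk RNA fewer cells of a type and less RNA per cell cannot be told apart.

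The 10 genes did not move as a block. Ratios are given as log2 of supplemented over restricted FPKM after adding 1 to each, a scale that shrinks differences of weakly expressed genes. On it, FOS, JUNB, EGR1 and MYC were lower in the supplemented library by at least 2-fold (a log2 ratio of -1 or less). ATF3 and NR4A2 were higher by at least 2-fold, and FOSB, FOSL2, JUN and NR4A1 lay between. All 10 reached the minimum set for a measured gene, a mean of 1 FPKM. Thus 4 of 10 were lower, where 2.85% of all 11927 measured genes were, and 2 of 10 were higher, where 5.87% of all measured genes were. The median log2 ratio was -0.39 over the 10 genes and -0.08 over all measured genes. Abundant genes as a class were lower: where the mean was at least 100 FPKM the median was -0.30, with 4.32% lower and 2.57% higher by size. Of the 4 factor genes in that class, FOS, JUN, JUNB and EGR1, 3 were lower and 0 higher. Where the mean was at least 5 FPKM, 4 of 9 factor genes were lower (2.61% of all genes there) and 1 was higher (3.6%). By counting intervals, 6 of the 10 lay wholly below 1, as did 35.7% of all measured genes, and 2 wholly above 1, as did 20.4%. The 10 genes together took 26002 reads in the supplemented library and 51606 in the restricted one, 0.276% against 0.457% of all reads. FOS (8685 against 21101 reads) and EGR1 (6034 against 14254) hold most of these reads in both libraries. ATF3 (232 against 100) and NR4A2 (226 against 82), which were higher, weigh little in the sum.

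**Figure D1:**
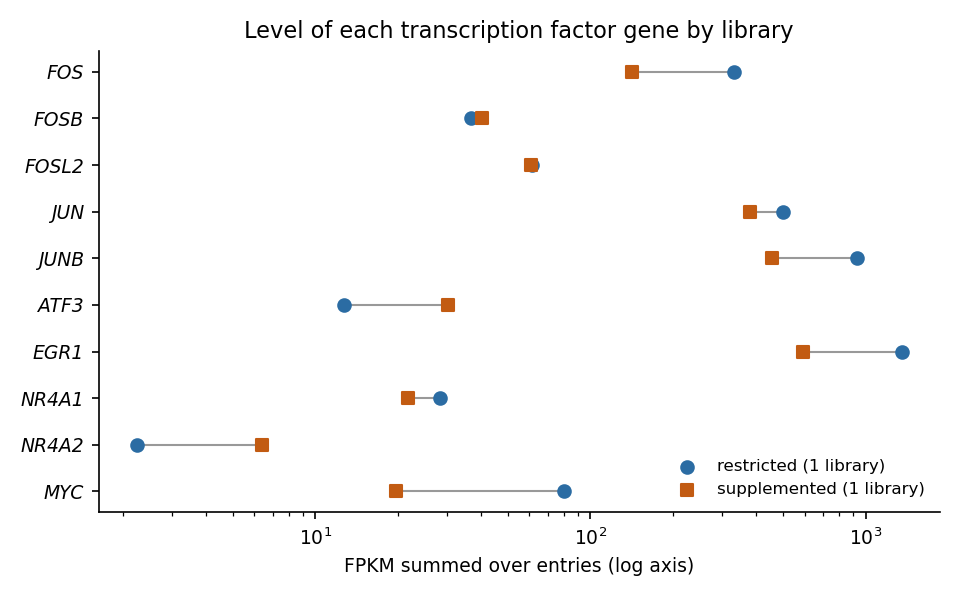
FPKM of each gene, summed over its transcript entries, on a log axis, with 1 point for each library. FOS, JUNB, EGR1 and MYC sit to the left in the supplemented library, ATF3 and NR4A2 sit to the right, and the points of FOSL2 (60.8 against 61.4 FPKM) nearly coincide.

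How the libraries are scaled decides how these differences are expressed. Scaled by the share of all reads, each read ratio is 1.16-fold higher than as deposited. That leaves FOS (log2 ratio -1.01) and MYC (-1.77) lower by size. EGR1 (-0.98) is then just short of the size threshold, and JUNB (-0.81) falls further short of it. The split of all measured genes then becomes 878 higher and 212 lower, against 700 and 340 as deposited. Centred on the median of the 8 granulosa markers, the split becomes 7497 higher and 26 lower, and FOS (-0.02) and EGR1 (0.02) lie at 0. JUNB (0.19) then lies just above that median and MYC (-0.77) below it. The markers do not share a single shift, as their log2 ratios run from -1.72 (CYP19A1) to -0.18 (FSHR). NR5A2 (-0.47) and AMH (-0.54) were also short of the size threshold. FSHR, NR5A2 and AMH were named after their values were seen. ATF3 was higher by size under each of the 11 settings that give it a ratio.

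**Figure D2:**
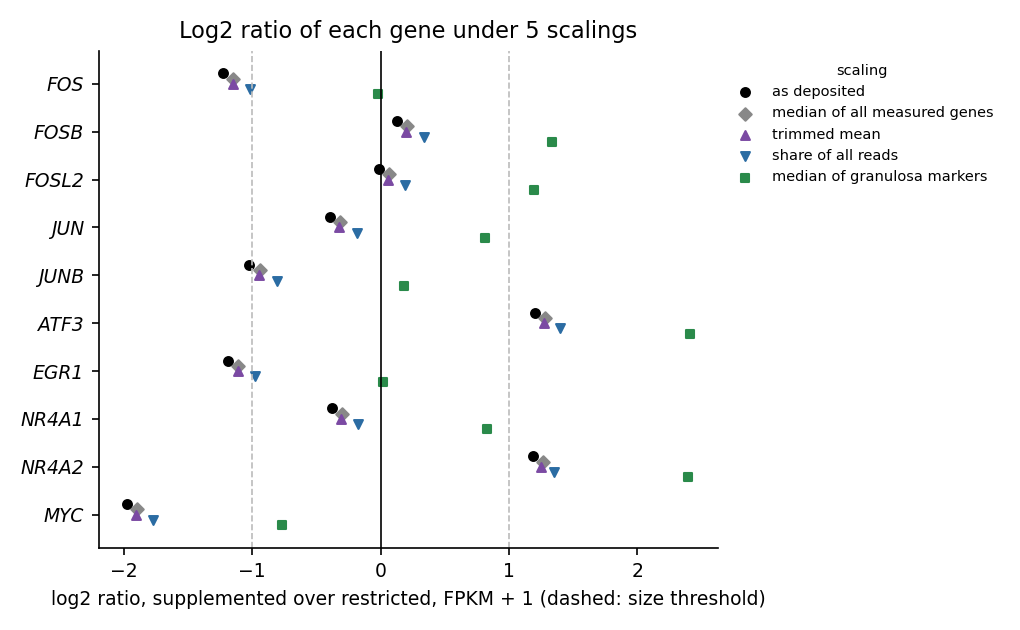
Log2 ratio (supplemented over restricted, FPKM + 1) of each gene under 5 scalings, 1 marker shape for each, with the size threshold of 1 and -1 dashed. The order of the genes stays while all points shift to the right, by up to 0.21 for the share of all reads and by 1.21 for the granulosa markers (log2), and ATF3 and NR4A2 stay above 1 under all 5.

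In the FOS family, FOS alone passed the size threshold. FOS codes for the founding member of the family, whose protein cannot pair with itself and binds DNA with a JUN partner. It had 8685 reads (141 FPKM) in the supplemented library and 21101 reads (332 FPKM) in the restricted one, the highest read count of the 10 genes in both. The read ratio was 2.35-fold lower (2.29 to 2.41), and 2.66% of all measured genes had a lower read ratio. FOSB, a close relative of FOS, had 661 against 624 reads (40.3 against 36.8 FPKM), a ratio of 1.10 (0.982 to 1.23). FOSL2, also called FRA2, had 996 against 1041 reads (60.8 against 61.4 FPKM), a ratio of 0.991 (0.907 to 1.08). For both, the counting interval includes 1, and it excludes a difference as large as that of FOS. FOSL1, the remaining family member, was barely present, with 20 against 22 reads, and is named here to complete the family, outside the rule for named genes.

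The FOS entry lies on chromosome 7 from 83366583 to 83400913 of Oar_v3.1, a span of 34331 bases. An entry without a gene name is listed with the same span and has no reads in either library, so no read was split between the entries. FOSB lies on chromosome 14 from 52143114 to 52147300 and FOSL2 on chromosome 3 from 35224056 to 35240439, and no other entry overlaps them. The FOS span of 34331 bases is longer than those of FOSB (4187) and FOSL2 (16384). Whether all reads in it come from FOS was not tested.

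In the JUN family the genes were lower by different amounts. JUN, which can pair with itself as well as with FOS proteins, had 6200 supplemented reads (379.9 FPKM) against 8447 restricted reads (499.98 FPKM). That is 1.32-fold lower (1.27 to 1.36), short of the size threshold, and 23.1% of all measured genes had a lower read ratio. The log2 ratio of JUN was -0.40, and -0.18 by share of all reads. All genes at a mean of 100 FPKM or more, where JUN, JUNB and JUND lie, had a median of -0.30 as deposited. JUNB, a JUN relative that is the weaker activator in many settings, had 681 against 1430 reads (458 against 929 FPKM), 2.03-fold lower (1.85 to 2.23). Its log2 ratio of -1.02 sits on the edge of the size threshold, and centring on the all-gene median (-0.94) or trimmed mean scaling (-0.95) takes it below 2-fold. JUND, the constitutively expressed JUN protein, had 1283 against 1932 reads (538 against 783 FPKM), 1.45-fold lower (1.35 to 1.56). The JUNB interval lies beyond those of JUN and JUND, which overlap at their edges.

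JUN lies on chromosome 1 from 33248219 to 33249157 and JUNB on chromosome 5 from 10817372 to 10817629. In the deposited values 1 scaled read is worth 0.661 FPKM in JUNB, 0.0602 in JUN and 0.0160 in FOS. The spans of the JUNB and JUN entries, 258 and 939 bases, account for only part of the 10.98-fold gap between them, and how the authors set the length behind an FPKM is not given in the sources used. JUNB stands above JUN in FPKM in both libraries and below it in reads, also per base of these spans, so the order of JUNB and JUN depends on that length.

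ATF3 went in the opposite direction to FOS. It codes for a stress-induced member of the ATF/CREB family whose dimers repress or activate according to the partner. It had 232 reads (30.4 FPKM) in the supplemented library and 100 reads (12.7 FPKM) in the restricted one, a 2.40-fold higher ratio (1.89 to 3.07), with 93.5% of all measured genes at a lower read ratio. Ranked by FPKM among the 11927 measured genes, it stood 2580th against 5470th. The gene lies on chromosome 12 from 69064005 to 69069262. With 9 of 10 leukocyte markers also at least 2-fold higher in that library, their part in the ATF3 ratio was not tested.

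EGR1, a zinc finger factor induced by gonadotrophins in follicles, is listed as 2 neighbouring entries. Both are read from the same 2 libraries, so they are not independent readings of the gene. The first, on chromosome 5 from 47225442 to 47227130, had 3393 against 8041 reads, 2.29-fold lower (2.199 to 2.38) in the supplemented library. The second starts 82 bases further on, from 47227213 to 47227722, and had 2641 against 6213 reads, 2.27-fold lower (2.17 to 2.38). The ratios of the entries differ by less than their counting error. Together they hold 6034 against 14254 reads, 2.28-fold lower (2.21 to 2.35). The levels of the entries did differ: per length the second stood at 387 against 879 FPKM and the first at 206 against 472 FPKM, a gap of 1.88-fold (supplemented) and 1.86-fold (restricted). A gap of that size within 1 gene shows how coarse a comparison of FPKM levels between the factor genes is. NAB2, a corepressor that binds EGR1 and is itself an EGR target, was also lower, at 298 against 732 reads (10.5 against 24.96 FPKM), 2.37-fold (2.07 to 2.72). NAB1, its relative, stood at 171 against 181 reads, a ratio of 0.978 (0.789 to 1.21).

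**Figure D3:**
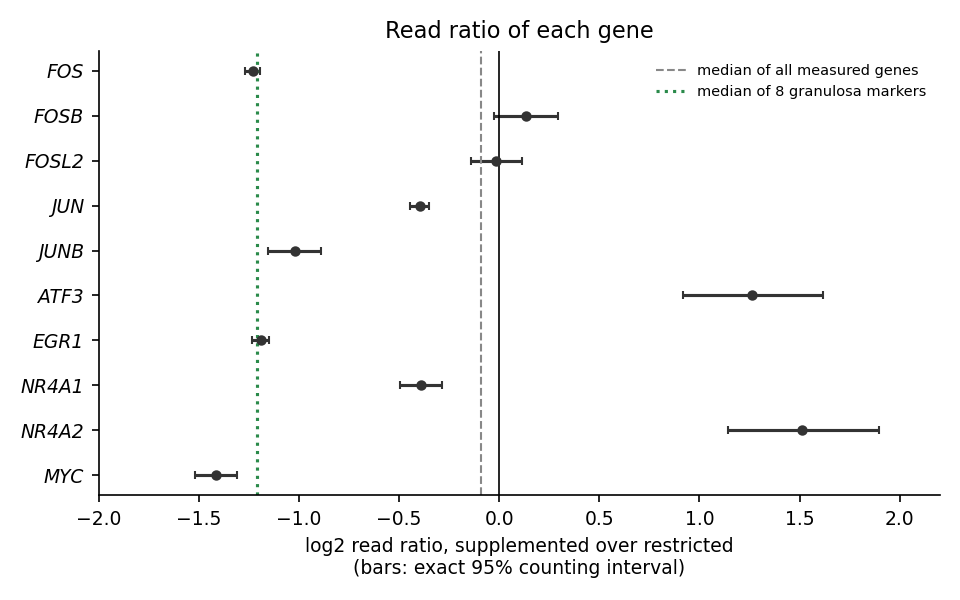
Log2 read ratio of each gene (supplemented over restricted) with its exact 95% counting interval, beside the median read ratio of all measured genes (dashed, -0.09) and of the 8 granulosa markers (dotted, -1.21). The intervals of FOS and EGR1 include the granulosa median, MYC lies to its left, and ATF3 and NR4A2 lie right of 0.

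The NR4A receptors differed in their ratios. NR4A1, also known as NUR77, a nuclear receptor without a known hormone that is induced by luteinising hormone in steroid-making cells, had 1269 against 1722 reads (21.7 against 28.5 FPKM), 1.31-fold lower (1.22 to 1.41). NR4A2, also known as NURR1, had 226 against 82 reads (6.401 against 2.24 FPKM), 2.85-fold higher (2.21 to 3.72). NR4A2 is the least abundant of the 10 genes, and with a pseudocount of 5 its log2 ratio falls from 1.19 to 0.65, short of the size threshold. NR4A3, the remaining receptor of the family, had 121 against 23 reads, 5.45-fold higher (3.47 to 8.92); its low level keeps it outside the rule for named genes, and it was named after its values were seen. As deposited, NR4A2 and NR4A3 were therefore higher while NR4A1 was lower, and their intervals do not overlap that of NR4A1. NR4A1 itself was short of the size threshold, and 23.5% of all measured genes had a lower read ratio. Its log2 ratio of -0.38 became -0.17 by share of all reads and 0.83 relative to the granulosa markers. NR4A1 lies on chromosome 3 from 134111451 to 134162231 and NR4A2 on chromosome 2 from 152146119 to 152150524.

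MYC, a growth-promoting factor that pairs with MAX, had the lowest ratio of the 10 genes. It had 1018 supplemented against 2805 restricted reads, 2.66-fold lower (2.48 to 2.86), and 1.95% of all measured genes had a lower read ratio. The size of its FPKM difference rests on how its entries are counted. Both MYC entries have the same span, chromosome 9 from 25632154 to 25637666, and reads were divided between them. The main entry had 1008 against 2745 reads and 11.2 against 29.6 FPKM. The other had 10 against 60 reads, yet 8.44 against 50.8 FPKM, since 1 scaled read is worth 0.855 FPKM in it and 0.0110 in the main entry. In the restricted library this entry held 2.16% of the reads of MYC and 63.2% of its FPKM. The log2 ratio of summed FPKM was -1.98, that of the main entry alone (chosen after seeing the data) was -1.32, and that of summed reads was -1.41. Of all measured genes, 0.478% lay below the first of these values on the log2(FPKM + 1) scale and 1.43% below the second. By each of these MYC was lower by at least 2-fold. MAX stood at 313 against 361 reads, a ratio of 0.898 (0.769 to 1.05), and MYCN, a MYC relative named outside that rule, at 1 read in each library.

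The authors' deposited table calls 0 of the 12 entries at a q-value below 0.05, where it calls 0.743% of all entries. At an unadjusted p below 0.05 it lists 6 of the 12, where it lists 4.55% of all entries. In the authors' deposited table the lowest p is that of the main MYC entry (p = 0.00141, q = 0.0920), followed by the EGR1 entries (p = 0.00599 and 0.00684), FOS (p = 0.0185), JUNB (p = 0.0213) and NR4A2 (p = 0.0273). In the authors' deposited table ATF3 misses that p threshold. These values come from 1 library for each diet and compare the libraries, not the diets.

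By rank, which no scaling changes, EGR1 stood 130th in the supplemented and 58th in the restricted library among 11927 measured genes, with its entries summed. JUNB stood 170th against 103rd and JUN 201st against 180th. FOS moved from 253rd in the restricted library to 518th in the supplemented one, and MYC from 1147th to 3824th. FOSL2 stood 1320th in the supplemented library against 1524th, FOSB 1997th against 2438th, and NR4A1 3517th against 3059th. NR4A2 stood 7722nd against 10136th. With the EGR1 entries summed, EGR1, JUNB, JUN and FOS held the top 4 places among the 10 genes in both libraries, in that order. Each EGR1 entry alone stood below JUNB, the higher one at 387 against 458 FPKM (supplemented) and 879 against 929 FPKM (restricted). The order of JUNB and JUN depends on the length behind an FPKM, and so does the place of FOS. FOS had the most reads of the 10 genes in both libraries. In FOS 1 scaled read is worth 0.0160 FPKM, against 0.0602 in JUN. MYC was 5th among the 10 genes in the restricted library and 9th in the supplemented one, with its short entry included in the sum.

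Read shares within a pair of genes are also free of library scaling. They restate the read ratios given above and add no further support to them. The pairs were picked with earlier results of these data known. NR4A2 with NR4A1 and MYC with MAX are not AP-1 pairs. FOS made up 71.4% of FOS and JUN reads in the restricted library (70.9% to 71.9%) and 58.3% in the supplemented one (57.6% to 59.1%). Within the FOS family, FOS took 97.1% of FOS and FOSB reads against 92.9%, and 95.3% of FOS and FOSL2 reads against 89.7%, restricted against supplemented. JUNB took 14.5% of JUNB and JUN reads in the restricted library (13.8% to 15.2%) and 9.90% in the supplemented one (9.20% to 10.6%). JUND changed less against JUN, at 18.6% and 17.1%, with intervals of 17.9% to 19.4% and 16.3% to 18.02% that overlap. NR4A2 took 4.55% of NR4A2 and NR4A1 reads in the restricted library (3.63% to 5.61%) and 15.1% in the supplemented one (13.3% to 17.0%). ATF3 took 1.17% of ATF3 and JUN reads against 3.61%, and MYC took 88.6% of MYC and MAX reads against 76.5%. Except for JUND and JUN, the intervals of each of these pairs lie apart between the libraries. Such separation by counting is common here. The counting interval of the read ratio lay wholly below 1 for 35.7% of all measured genes and wholly above 1 for 20.4%. How often pairs of other genes lie apart was not computed. The shares count reads, so they are not molar shares of the transcripts.

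**Figure D4:**
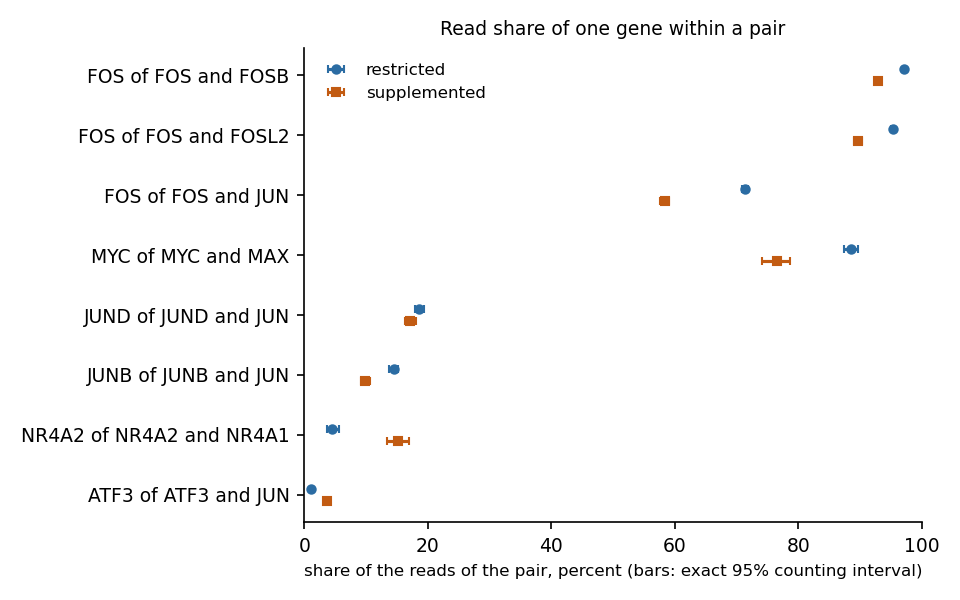
Share of reads that the first gene takes within each of 8 gene pairs, in percent, for both libraries, with exact 95% counting intervals. The shares of FOS, JUNB and MYC are smaller in the supplemented library and those of NR4A2 (15.1% against 4.55%) and ATF3 (3.61% against 1.17%) are larger.

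Related genes were taken from fixed lists, each described by counts and its median beside the 5.87% higher and 2.85% lower of all measured genes. Of the other AP-1 dimer proteins 7 were measured, with a median of -0.06 (0.11 by share of all reads), 1 higher and 0 lower by size. The higher one was BATF, an AP-1 protein of lymphocytes and other leukocytes, on 21 against 6 reads, and it was named after its values were seen. ATF7, a relative of ATF2, had 249 against 137 reads (9.57 against 5.09 FPKM), 1.88-fold higher (1.52 to 2.34). ATF2 had 662 against 750 reads, a ratio of 0.914 (0.822 to 1.02), and JDP2, a repressor of AP-1, had 77 against 85 reads, a ratio of 0.938 (0.680 to 1.29).

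Of 25 other immediate early genes measured, 4 were higher and 2 lower by size, with a median of -0.20 (-0.0049 by share of all reads). CYR61, a matricellular protein, had 645 against 2084 reads (26.6 against 83.1 FPKM), 3.12-fold lower (2.86 to 3.41). IER2 had 663 against 1427 reads (70.4 against 146 FPKM), 2.08-fold lower (1.89 to 2.28). SGK1, a kinase induced by serum and glucocorticoids, had 1070 against 427 reads (22.1 against 8.51 FPKM), 2.59-fold higher (2.32 to 2.91). ZFP36L1, which binds AU-rich elements and speeds mRNA decay, had 329 against 134 reads (38.2 against 15.0 FPKM), 2.54-fold higher (2.07 to 3.13). The other two higher genes were NR4A3 and IRF1, an interferon-responsive factor, at 652 against 327 reads, named after its values were seen. Like the 10 factor genes, this list therefore holds members on both sides.

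Upstream of these genes few members passed the size threshold. Of 21 kinases and transcription factors measured, 2 were higher and 0 lower by size, with a median of -0.14 (0.041 by share of all reads). ELK1, a partner of SRF at the FOS promoter, had 971 against 1714 reads (3.93 against 6.70 FPKM), 1.71-fold lower (1.58 to 1.85). RPS6KA3, the RSK2 kinase, had 2432 against 3761 reads, 1.49-fold lower (1.42 to 1.57), and MAPK7, the ERK5 kinase, had 444 against 688 reads, 1.50-fold lower (1.33 to 1.69). RPS6KA1, the RSK1 kinase, had 373 against 167 reads (8.41 against 3.64 FPKM), 2.31-fold higher (1.92 to 2.79). The other higher gene, MKL2, had 20 against 7 reads and was named after its values were seen.

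Of 9 measured MAP kinase feedback inhibitors, 1 was higher and 1 lower by size, with a median of -0.09 (0.12 by share of all reads). DUSP2, a nuclear MAP kinase phosphatase abundant in leukocytes, had 250 against 49 reads (38.9 against 7.36 FPKM), 5.28-fold higher (3.88 to 7.33). SPRY2, an inhibitor of receptor tyrosine kinase signalling, had 89 against 210 reads (6.58 against 15.0 FPKM), 2.28-fold lower (1.77 to 2.95). DUSP8 had 289 against 433 reads, 1.45-fold lower (1.24 to 1.69), and DUSP6, the ERK phosphatase, 195 against 165 reads, a ratio of 1.22 (0.989 to 1.51). Of the 3 corepressors of EGR and NR4A factors, NAB2 was lower by size and 0 were higher.

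Around MYC, 8 network partners were measured and 0 passed the size threshold, with a median of -0.02 (0.16 by share of all reads). MXD3, a MAX partner that opposes MYC, had 296 against 396 reads, 1.29-fold lower (1.11 to 1.51). MXI1, another such partner, had 177 against 138 reads, 1.33-fold higher (1.06 to 1.67), and MLX 549 against 601 reads, a ratio of 0.946 (0.841 to 1.06). Of 13 measured growth genes known to be bound by MYC, 12 were below 0, as were 57.8% of all measured genes, and 0 passed the size threshold. Their median was -0.34, where that of all genes at a mean of 5 FPKM or more was -0.14 and at 100 FPKM or more -0.30 (the list's median was -0.13 by share of all reads, and 0.86 relative to the granulosa markers). For 11 of them the counting interval lay wholly below 1, where it did for 35.7% of all measured genes. NOP58, a box C/D ribonucleoprotein of the nucleolus, had 970 against 1854 reads, 1.85-fold lower (1.71 to 1.997). NOP56, its partner, had 1751 against 2507 reads, 1.38-fold lower (1.30 to 1.47). NOLC1 and PA2G4, which act in ribosome production, were 1.38-fold lower (1.31 to 1.45) and 1.36-fold lower (1.29 to 1.43).

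**Figure D5:**
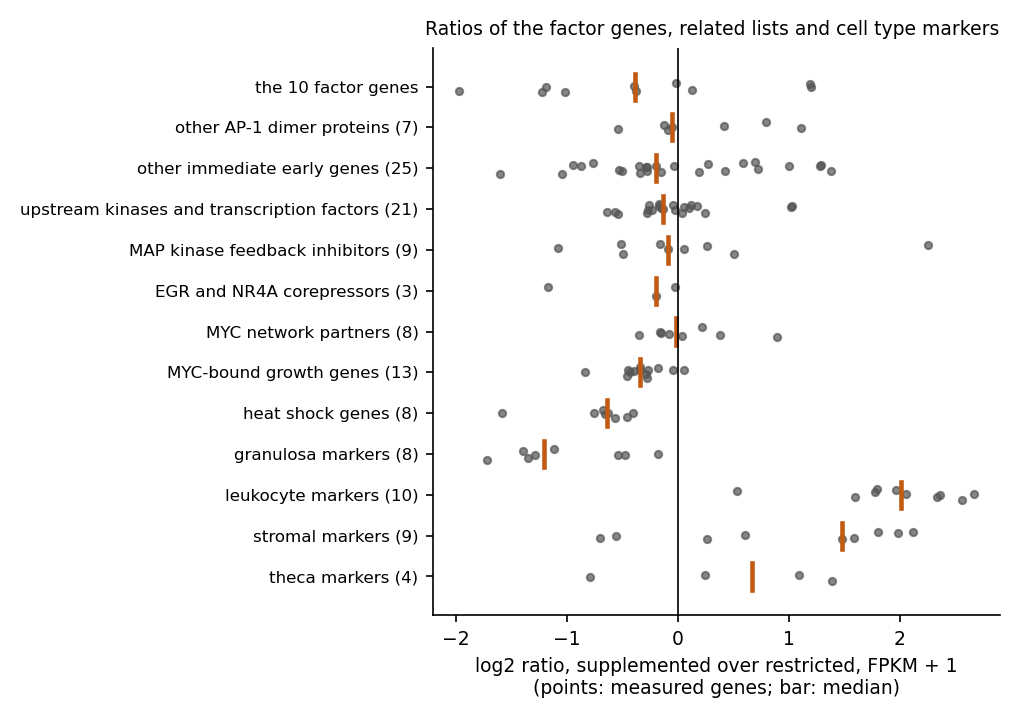
Log2 ratios (supplemented over restricted, FPKM + 1) of the 10 factor genes, the related lists and cell type markers, 1 point for each measured gene and a bar at the median, with the number of measured genes in brackets. The 10 factor genes spread from -1.98 to 1.20, the granulosa markers have a median of -1.21 and the leukocyte markers a median of 2.01.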

How the data were processed

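The deposited table has 1 line for each transcript entry. Per the submitters' processing notes, TopHat and Cuffdiff were used with build Oar_v3.1; tool versions and the gene annotation are not given in the sources here. Libraries were made with 15 PCR cycles from 5 µg of RNA for each diet, per the labels' protocols. The deposited scaled reads are a signal in which the authors divided read counts by 1 factor for each library. Dividing by the worth of 1 read (1.02 supplemented, 0.983 restricted) turned 98.5% and 98.3% of entries above 0 into whole reads (tolerance 0.02). The deposited FPKM columns were taken to be on the same scaling. For JUN, for example, the log2 ratio was -0.3963 by FPKM without a pseudocount and -0.3962 by scaled reads. P-values and q-values are the authors', copied from the deposited table.

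FPKM and reads were summed by gene name, and entries without a name were kept apart. Of 3329 loci up to 600 bases, 95.5% had an end minus start divisible by 3, so starts were raised by 1 to print 1-based positions, and these models hold mostly coding length. With 1 library for each diet no count model could be fitted to the recovered reads, so no gene was called by one. Named genes are the 10 factor genes and up to 4 genes for each list with the largest log2 ratio in size at a mean FPKM of at least 5; a gene outside this rule is said to be so where it is named. Genes and lists were chosen with earlier results of these data known. A name on a list without an entry is not analysed here. The procedure was tested on simulated data with counting error alone, so that test does not cover variation among ewes or PCR copies. Python 3.11.15, pandas 2.3.3, numpy 2.4.6, scipy 1.17.1 and matplotlib 3.10.9 were used. The alternatives are other pseudocounts, filters, scalings (the trimmed mean left out 30% of ratios and 5% of abundances at each end) and choices of entry, and a rule on counting intervals.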

Additional observations from a re-analysis of the deposited data

How the results depend on the processing

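With 1 library for each diet, the precision is limited by animals that were not measured separately, and for ATF3, NR4A2 and the short MYC entry also by reads. No paired analysis was possible because each group has 1 library. Among the 10 genes, 2 were higher and 4 lower by size. The number higher was 1 with a pseudocount of 5 and 1 where a mean of 5 FPKM was required, since NR4A2 is then filtered out, and 4 when centred on the granulosa markers. The number lower was 2 by share of all reads and 0 relative to the granulosa markers. Their median of -0.39 became -0.18 by share of all reads and 0.82 relative to the granulosa markers. By counting intervals 6 of the 10 lay below 1 (35.7% of all measured genes) and 2 above (20.4%). JUNB (0.19) and EGR1 (0.019) reversed when centred on the granulosa markers, by construction of that centring, which adds 1.21 to each log2 ratio. MYC ran from -2.46 for the entry of highest FPKM to -0.77 when centred in that way.

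Among all measured genes, 700 were higher and 340 lower by size. The counts were 228 and 132 with a pseudocount of 5, 302 and 219 where a mean of 5 FPKM was required, 878 and 212 by share of all reads, 7497 and 26 relative to the granulosa markers, and 2433 and 4259 by counting intervals.

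List medians near 0 changed sign with the scaling. Centring on the granulosa markers adds 1.21 to each log2 ratio, and so raised the medians of all 8 lists above 0, also those further from 0. When centred on the granulosa markers they were 1.15 for other AP-1 proteins, 1.01 for other immediate early genes, 1.07 for upstream factors, 1.12 for feedback inhibitors, 1.01 for corepressors, 1.19 for MYC partners, 0.86 for MYC-bound growth genes and 0.56 for heat shock genes. By share of all reads they were 0.11 for other AP-1 proteins, 0.041 for upstream factors, 0.12 for feedback inhibitors and 0.16 for MYC partners. Centred on all measured genes they were 0.023 for other AP-1 proteins and 0.058 for MYC partners. Without a filter they were 0.13 and 0.0030, and trimmed mean scaling gave 0.043 for MYC partners. By share of all reads the medians of other immediate early genes (-0.0049), corepressors (-0.049), MYC-bound growth genes (-0.13) and heat shock genes (-0.43) stayed below 0.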

Other observations

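Heat shock genes, which cell stress induces along with many immediate early genes, were lower in the supplemented library. All 8 measured genes of the list had a log2 ratio below 0 (57.8% of all measured genes did). Their median was -0.64 (-0.43 by share of all reads, and 0.56 relative to the granulosa markers). Several of them are abundant, and all genes at a mean of 100 FPKM or more had a median of -0.30. Of the list, 1 gene was lower by size, where 2.85% of all measured genes were. That gene was HSPA1B, an inducible HSP70, at 784 against 2388 reads, 2.94-fold lower (2.71 to 3.19). It has a near-identical copy in mammalian genomes, so its count is uncertain. HSP90AA1, the inducible HSP90, had 12684 against 22187 reads, 1.69-fold lower (1.65 to 1.73). The mitochondrial chaperonins HSPD1 and HSPE1 were 1.63-fold lower (1.56 to 1.71) and 1.47-fold lower (1.33 to 1.63). ATF3, which also responds to stress, was 2.40-fold higher in the same library. The part of cell makeup in these ratios was not tested.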
